A study of Mus musculus with 12 samples.

Results

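Fatty acid beta-oxidation enzymes, the proteins that carry fatty acids into mitochondria and peroxisomes and shorten them to acetyl-CoA, were described in mouse hearts after a week of running. A list of 31 genes was used, and for each gene the annotated Illumina probe with the highest mean signal was taken. Of the 31 genes, 28 had a probe detected on at least 6 of 12 arrays, out of 9843 named genes that passed the same filter, and all 28 were detected on 12 of 12 arrays. Cpt1a, the carnitine palmitoyltransferase typical of liver, had 2 probes that were detected on 0 of 12 arrays, with detection p-values no lower than 0.189. Acaca, the acetyl-CoA carboxylase typical of lipid-making tissues, had 1 probe, also detected on 0 of 12 arrays, with detection p-values no lower than 0.638. Acsl1, a long-chain acyl-CoA synthetase, had no probe of that symbol in the annotation and was not analysed here. The mice were C57Bl/6 males, 8 weeks old, and RNA was taken from the entire heart, in 6 samples exercised by 7 days of voluntary running and 6 sedentary controls. Both groups shared strain, sex and age, and the labels name no allele or agent. Nothing in the labels says whether samples came from different animals, and the p-values cover the spread among samples, which may be technical.

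The adult heart is known to draw most of its fuel from fatty acids. Long-chain acyl groups are coupled to carnitine at the outer mitochondrial membrane, carried across the inner membrane and passed back to coenzyme A, and repeated rounds of dehydrogenation, hydration, dehydrogenation and thiolysis release acetyl-CoA. Malonyl-CoA blocks the carnitine step. Peroxisomes run a separate set of enzymes that shorten very long and branched chains and hand the products on to mitochondria, and many genes of both sets are known targets of the nuclear receptor PPAR alpha.

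Several features of the arrays bear on these genes. Between 16619 and 18708 probes were detected per array. The raw signal had a median of 130.5 to 138.6 on 4 arrays of high background, which were exercised replicates 2, 3 and 6 and sedentary replicate 2, and of 48.6 to 53.3 on the other 8. Markers of hepatocytes, of which 14 of 18 passed the filter, averaged 6.66 to 12.96 in exercised and 6.29 to 8.20 in sedentary hearts (log2 intensity), with 10.48, 11.99 and 12.96 in exercised replicates 1, 5 and 6. Albumin, Alb, was detected on 1 of 12 arrays and the fibrinogen chain gene Fgb on 0. Cardiomyocyte markers averaged 14.16 to 14.24 in exercised and 14.08 to 14.22 in sedentary hearts, over 14 genes led by the myosin light chains Myl2 and Myl3, so the labelled tissue carried its defining transcripts. Of the brown fat markers Ucp1 and Dio2 were detected on 0 of 12 arrays and Elovl3 on 1 exercised array. Cidea, Cox7a1 and Cox8b were detected on all 12, with a median difference of -0.07 over these 3. Cox7a1 and Cox8b averaged 14.69 and 14.27, as bright as the cardiomyocyte markers (12.41 to 15.05), so they do not measure brown fat here. Of the skeletal muscle markers Myh1, Myh4, Tnnt3 and Tnnc2 were detected on 0 of 12 arrays. The 3 measured, Tnni2, Mylpf and Atp2a1, were all negative, with a median of -0.29 and -0.71 (SE 0.30) for Tnni2, the troponin I of fast fibres. White fat markers, 2 measured (Adipoq and Cidec), averaged 4.96 to 8.20 in exercised and 5.11 to 7.15 in sedentary hearts. The 8.20 was that of exercised replicate 3. Plin1 and Retn were detected on 0 of 12 arrays and Lep on 1 exercised array. Fabp4 was detected on 5 of 6 sedentary and 0 of 6 exercised arrays. Endothelial, fibroblast and macrophage markers were negative in 8 of 8, 7 of 7 and 9 of 9 measured genes, with medians of -0.37, -0.18 and -0.66, and the part of these cell types in the values below was not tested. In bulk tissue, fewer cells of a type and less RNA per cell cannot be told apart.

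Most beta-oxidation genes stood slightly higher in exercised hearts, by amounts that did not pass the test for any one gene. In limma, 0 of 28 genes passed an adjusted p under 0.05, against 0.183% of all genes tested (0.0203% in the higher direction). At an unadjusted p under 0.05 there were 8, all higher, which is 28.6% of the 28, against 5.29% of all genes on the higher and 10.6% on the lower side. With array weights, 1 of the 28 (3.57%) passed, against 5.42% of all genes. The log2 fold change was positive in 23 of 28 genes, against 43.4% of all genes, with a median of 0.15 against -0.04 over all genes. The values ranged from -0.21 for Hsd17b10 to 0.52 for Ehhadh, and 12 of 28 (42.9%) exceeded 0.2 in size, against 39.3% of all genes. These folds are on a log2 scale with an offset of 16 added after background correction, which understates the change of dim probes. Median scaling of the arrays in place of quantile normalization moved the median of all genes to 0.26 and that of the 28 genes to 0.45, so the gap between them was 0.19 under that scaling and 0.18 under quantile normalization. Restricting the fit to the 8 low-background arrays left 18 of 28 positive, against 45.8% of all genes, with a median of 0.07. Taking the background range as a block gave 23 of 28, against 45.2% of all genes, and a median of 0.09. With the hepatocyte marker mean as a covariate 24 of 28 were positive, against 49.3% of all genes, with a median of 0.23. Without exercised replicates 1, 5 and 6 it was 23 of 28, against 48% of all genes, with a median of 0.25.

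**Figure D1:**
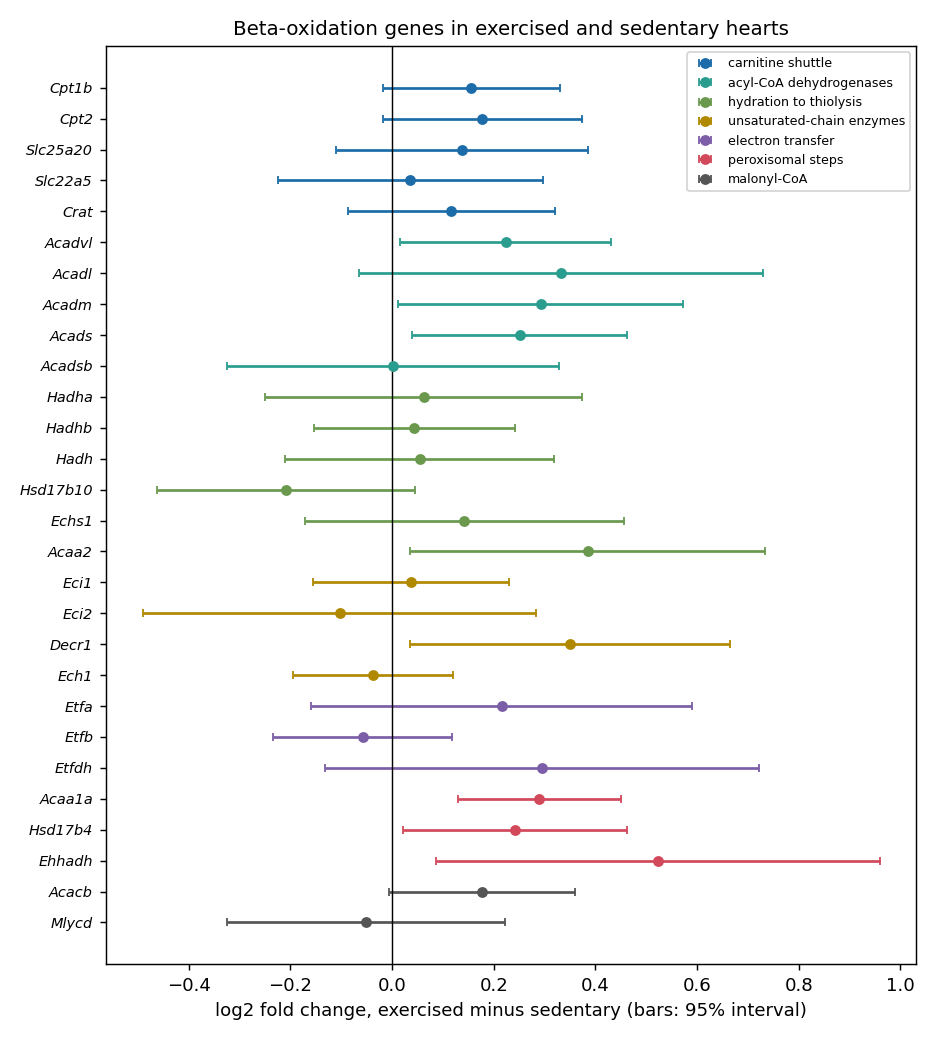
Log2 fold change, exercised minus sedentary, of the 28 measured beta-oxidation genes (x axis), 1 row per gene, coloured by role; points are limma estimates over 6 and 6 arrays and bars are 95% intervals. Intervals exclude 0 for 8 genes, 3 of them peroxisomal, and the narrowest of those 3 belongs to Acaa1a (0.13 to 0.45).

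On the probes used, genes of the carnitine shuttle were all on the positive side and all within 0.2. Cpt1b, the muscle carnitine palmitoyltransferase at the outer membrane, was at 12.57 to 12.97 (median 12.70) in exercised and 12.44 to 12.67 (median 12.59) in sedentary hearts. The groups overlapped, with 3 of 6 exercised arrays above every sedentary array. Its fold change was 1.11, with a 95% interval of 0.987 to 1.26 (adjusted p = 0.357 in limma). Cpt2, which returns the acyl group to coenzyme A inside the membrane, was at 13.06 to 13.57 (median 13.12) in exercised and 12.95 to 13.15 (median 12.99) in sedentary hearts and differed by 0.18 (SE 0.09). Its highest value came from exercised replicate 3, which had the highest Cpt1b, the highest mean over the 28 genes and the highest white fat marker mean as well. Without that array 20 of 28 genes were positive, against 40.6% of all genes, with a median of 0.11. Slc25a20, the carrier that exchanges acylcarnitine for carnitine, differed by 0.14 (SE 0.12), and by 0.04 with the background block. Crat, the acetyltransferase that buffers acetyl-CoA with carnitine, differed by 0.12 (SE 0.10). The plasma membrane carnitine transporter Slc22a5 differed by 0.04 (SE 0.12), and the sign turned to -0.05 with the background block. On these probes, the upper end of the interval exceeded a fold change of 1.31 for none of the 5 genes.

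The acyl-CoA dehydrogenases, which catalyse the first oxidation on chains of different length, had a median of 0.25 over 5 genes. Acads, for short chains, was at 10.28 to 10.88 (median 10.66) in exercised and 10.21 to 10.52 (median 10.38) in sedentary hearts. Exercised replicate 6 fell within the sedentary range, and the other 5 exceeded the highest sedentary value. The difference was 0.25 (SE 0.10, adjusted p = 0.256 in limma), and 0.30 with the background block. Acadvl, for very long chains, was at 13.48 to 13.91 (median 13.57) in exercised and 13.18 to 13.65 (median 13.42) in sedentary hearts and differed by 0.22 (SE 0.10). Acadm, the medium-chain enzyme, was at 14.39 to 14.86 (median 14.65) in exercised and 14.05 to 14.73 (median 14.30) in sedentary hearts. It differed by 0.29 (SE 0.13), and by 0.15 with the background block. Acadl, the long-chain enzyme, differed by 0.33 (SE 0.19), with a sedentary spread of 10.91 to 12.17 that enclosed every exercised array. It was 0.32 on low-background arrays alone and 0.15 with the background block. The 3 high-background exercised arrays lay 0.29 below the 1 high-background sedentary array, a comparison that rests on that array. Acadsb, which acts mainly on short branched chains from isoleucine, averaged 10.77 ± 0.24 in exercised hearts, against 10.77 ± 0.33 in sedentary ones (SD, n = 6 each).

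Promoter windows of RefSeq (GRCm38.p6, 250 bases before to 50 after each start) were available for 26 of the 31 genes, in 27 windows. The direct repeat of AGGTCA with 1 free base between the copies, the consensus bound by PPAR with its partner RXR, was in 0 of the 27 windows and in 0.0396% of all 32851 windows, counting both strands. The single unit AGGTCA was in 18.5% of the 27 windows and in 16.3% of all windows. This is a description of letters in a short window and says nothing about binding. The 3 measured genes with the unit before their start were Acadm, Acadvl and Echs1, shown here on the gene's own strand with the unit in capitals (TGACCT where it lies on the opposite strand).
Acadm, chr3:153944863-153944893, minus strand: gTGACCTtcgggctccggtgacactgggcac
Acadvl, chr11:70015486-70015539, minus strand: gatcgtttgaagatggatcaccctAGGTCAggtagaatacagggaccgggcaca
Echs1, chr7:140116475-140116528, minus strand: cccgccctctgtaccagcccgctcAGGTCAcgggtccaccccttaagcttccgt

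The enzymes that complete the mitochondrial round had a median of 0.06 over 6 genes. Acaa2, the mitochondrial thiolase that cuts off acetyl-CoA, was the furthest, at 12.47 to 13.08 (median 12.74) in exercised and 12.06 to 12.97 (median 12.27) in sedentary hearts. The groups overlapped, the 4 highest values came from the 4 high-background arrays, and the difference was 0.38 (SE 0.16, adjusted p = 0.279 in limma) but 0.20 with the background block. Hadha and Hadhb, the subunits of the trifunctional protein, stood at 6.92 ± 0.20 and 13.96 ± 0.17 in exercised hearts, against 6.85 ± 0.30 and 13.91 ± 0.14 in sedentary ones (SD, n = 6 each). Their fold changes had 95% intervals of 0.841 to 1.30 and 0.899 to 1.18. Hadh, the short-chain hydroxyacyl-CoA dehydrogenase, differed by 0.05 (SE 0.12), and Echs1, the short-chain enoyl-CoA hydratase, by 0.14 (SE 0.15), which became 0.01 with the background block. Hsd17b10, a mitochondrial dehydrogenase of branched acyl-CoA that is also a subunit of mitochondrial RNase P, lay lower, at 11.73 to 12.44 (median 12.12) in exercised and 12.09 to 12.36 (median 12.33) in sedentary hearts. Its 3 lowest exercised values were those of the high-background replicates 2, 3 and 6, and its difference of -0.21 (SE 0.12, adjusted p = 0.388 in limma) became -0.07 with the background block.

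Of the enzymes that prepare unsaturated chains, Decr1, the mitochondrial dienoyl-CoA reductase, was at 10.91 to 11.78 (median 11.10) in exercised and 10.35 to 11.04 (median 10.90) in sedentary hearts. The highest sedentary value was exceeded by 5 of 6 exercised arrays, and the difference was 0.35 (SE 0.15, adjusted p = 0.276 in limma). It ranged from 0.23 to 0.41 when each array was left out in turn. The isomerases Eci1 and Eci2 differed by 0.04 (SE 0.09) and -0.10 (SE 0.18), and Ech1, another isomerase, by -0.04 (SE 0.07). Electron transfer from the dehydrogenases to ubiquinone needs the flavoprotein subunits Etfa and Etfb and the oxidoreductase Etfdh. Etfa differed by 0.22 (SE 0.18), Etfb by -0.06 (SE 0.08) and Etfdh by 0.29 (SE 0.20). With the background block Etfa was at -0.01 and Etfdh at 0.05.

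Malonyl-CoA is made by acetyl-CoA carboxylase, of which Acacb is the form of heart and muscle, and removed by the decarboxylase Mlycd. Acacb was at 10.76 to 11.14 (median 10.86) in exercised and 10.59 to 10.83 (median 10.78) in sedentary hearts, and 4 of 6 exercised arrays exceeded the highest sedentary value. It differed by 0.18 (SE 0.09, adjusted p = 0.326 in limma). Mlycd averaged 11.01 ± 0.20 in exercised hearts, against 11.06 ± 0.27 in sedentary ones (SD, n = 6 each), a difference of -0.05 (SE 0.13) that was 0.08 with the background block.

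Of the peroxisomal genes, 1 of 3 separated the groups. Acaa1a, the peroxisomal thiolase, was at 11.89 to 12.16 (median 12.01) in exercised and 11.57 to 11.82 (median 11.75) in sedentary hearts. The lowest exercised value exceeded the highest sedentary one, which held for 1 of the 28 genes and for 0.335% of all genes. The reverse held for 0 of the 28 and for 0.782% of all genes. The fold change was 1.22 with a 95% interval of 1.09 to 1.37. The adjusted p was 0.123 in limma and ranged from 0.0350 with array weights to 0.589 with median scaling over the other settings fitted to all arrays. The difference of 0.29 (SE 0.08) was 0.30 with the background block, 0.29 on low-background arrays alone and 0.26 to 0.31 when each array was left out. With the hepatocyte marker mean as a covariate it was 0.22 (adjusted p = 0.402 in limma). Without exercised replicates 1, 5 and 6 it was 0.24 (adjusted p = 0.319 in limma). Exercised replicates 2, 3 and 4, where hepatocyte markers averaged 7.74, 7.23 and 6.66, had Acaa1a at 11.89, 11.99 and 12.02. Exercised replicates 1, 5 and 6, where these markers averaged 10.48, 11.99 and 12.96, had it at 12.07, 11.97 and 12.16. The part of liver transcripts in the Acaa1a signal was not tested. Acaa1a has a close paralog, Acaa1b, and whether the probe tells them apart was not tested.

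Hsd17b4, the peroxisomal bifunctional enzyme for branched and very long chains, was at 11.29 to 11.77 (median 11.49) in exercised and 11.20 to 11.45 (median 11.25) in sedentary hearts. The high-background arrays held the 3 highest exercised values and the highest sedentary value. The difference was 0.24 (SE 0.10, adjusted p = 0.282 in limma), 0.13 with the background block and 0.07 on low-background arrays alone. Ehhadh, the other bifunctional enzyme and a strong PPAR alpha target in liver, was at 5.88 to 6.98 (median 6.18) in exercised and 5.28 to 6.23 (median 5.74) in sedentary hearts. It differed by 0.52 (SE 0.20, adjusted p = 0.253 in limma), the largest of the 28 genes with this background correction, with exercised replicates 3, 5 and 6 above every sedentary array. The difference was 0.27 with the hepatocyte covariate, 0.34 without exercised replicates 1, 5 and 6 and 0.17 in the deposited values, where Acaa2 was at 0.40. It was not the largest without background correction, in the deposited values or with the hepatocyte covariate, alone or together with the background block. Nor was it the largest without exercised replicates 1, 5 and 6, where Etfdh was at 0.48.

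**Figure D2:**
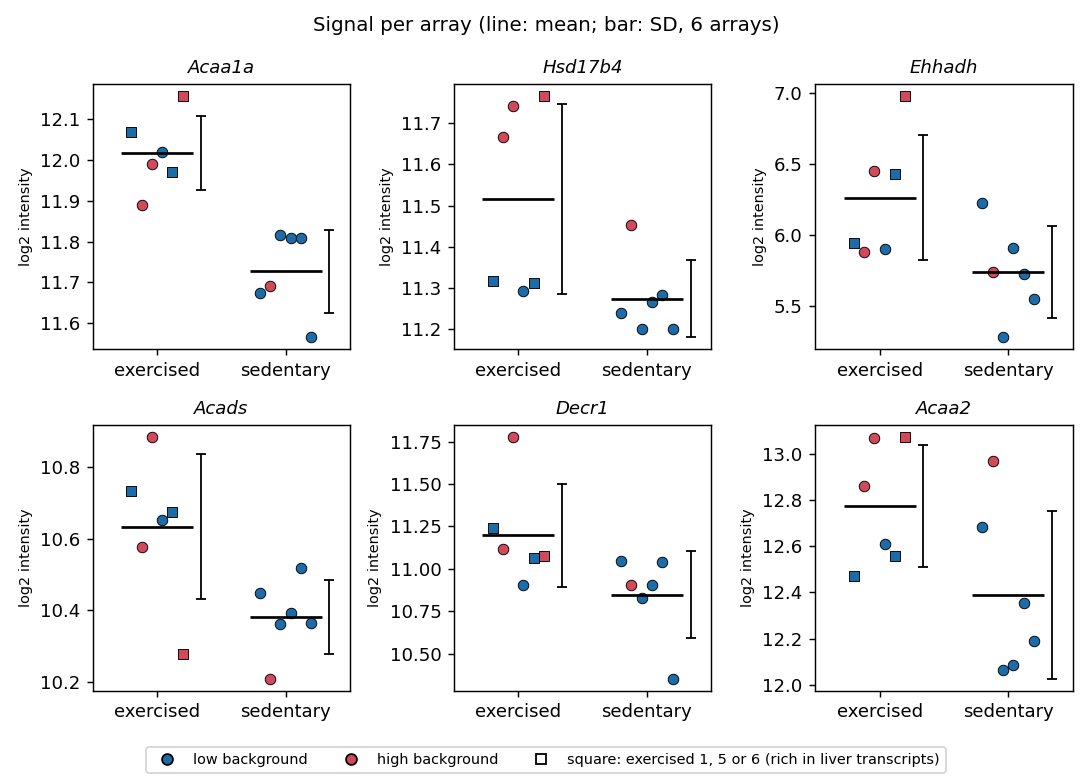
Log2 intensity per array (y axis) of the 3 peroxisomal genes and of Acads, Decr1 and Acaa2, in exercised and sedentary hearts; lines are means, bars are SD over 6 arrays, colour gives the background range and squares mark exercised replicates 1, 5 and 6. For Acaa1a the exercised arrays (11.89 to 12.16) lie above all sedentary arrays (11.57 to 11.82), while for Acaa2 and Hsd17b4 the high-background arrays lie highest in each group.

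Set side by side, the 3 peroxisomal genes had a median log2 fold change of 0.29 and the 23 measured mitochondrial genes of 0.14, a gap of 0.15. The 23 were all measured genes that were neither peroxisomal nor malonyl-CoA enzymes, the plasma membrane transporter Slc22a5 among them. Leaving out Crat, Eci2 and Ech1, which are known in both compartments, gave a gap of 0.14. The gap was 0.11 to 0.21 when each array was left out, 0.23 with the background block and 0.04 without exercised replicates 1, 5 and 6. With the hepatocyte covariate it was -0.01, with a peroxisomal median of 0.24 and a mitochondrial one of 0.25. The peroxisomal median of 0.29 was the value of Acaa1a, and so was the one of 0.30 with the background block. With that block Hsd17b4 was at 0.13 and Ehhadh at 0.45. Averaged per array as a deviation from each gene's 12-array mean, the peroxisomal genes ran from -0.02 to 0.54 in exercised and from -0.32 to -0.04 in sedentary hearts, with no overlap. The mitochondrial genes ran from -0.03 to 0.29 in exercised and from -0.20 to 0.16 in sedentary hearts, and 1 of 6 exercised arrays exceeded the highest sedentary one. Taken as a difference on each array, peroxisomal minus mitochondrial ran from -0.04 to 0.51 in exercised hearts. In sedentary hearts it ran from -0.21 to 0.09, so the groups overlapped in this difference. Its pooled SD within groups was 0.17. The highest peroxisomal value, 0.54, was that of exercised replicate 6, which also had the highest hepatocyte mean. Its mitochondrial value was 0.03.

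**Figure D3:**
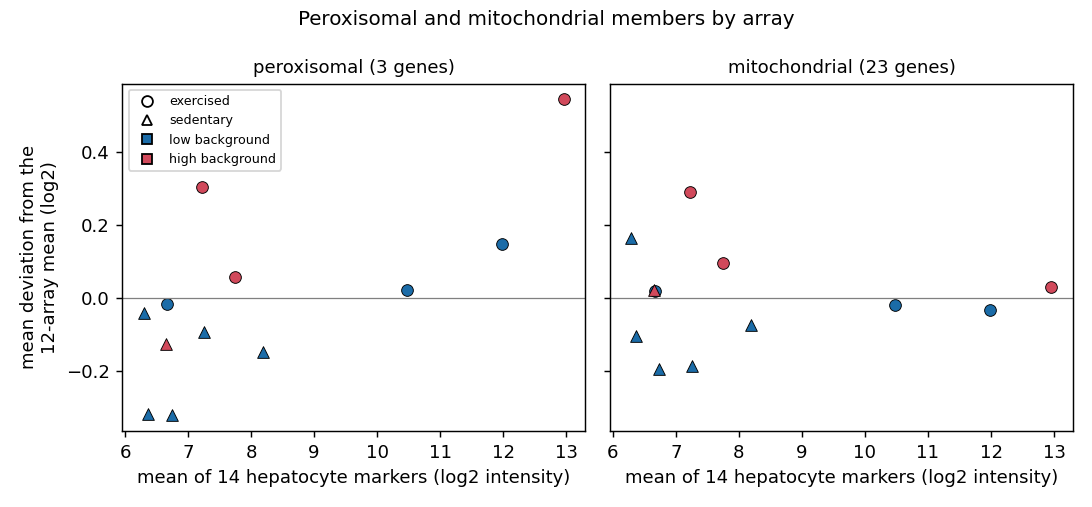
Mean deviation from the 12-array mean (log2, y axis) of the 3 peroxisomal and the 23 mitochondrial genes against the mean of 14 hepatocyte markers on the same array (log2 intensity, x axis), 1 point per array; circles are exercised, triangles sedentary, and colour gives the background range. Peroxisomal values are highest in exercised replicate 6 (0.54), and mitochondrial values in exercised replicate 3 (0.29).

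The background range of the arrays went with the signal of many genes, and it separated several of the 28 more widely than exercise did. With the group in the same limma fit, 10 of the 28 genes passed an adjusted p under 0.05 between high-background and low-background arrays, 8 higher and 2 lower in the high-background arrays. Over all genes 35.3% passed, 15.3% higher and 20.0% lower, so 10 of 28 was about the share over all genes. Etfdh was at 13.12 to 13.55 on the 4 high-background arrays and 12.28 to 12.88 on the 8 others, a difference of 0.73 (SE 0.12, adjusted p = 0.000439 in limma). Etfa was at 14.67 to 14.89 on the high-background and 13.91 to 14.38 on the low-background arrays, a difference of 0.67 (SE 0.09). Acadl, Acaa2, Acadm, Echs1, Hsd17b4 and Slc25a20 were higher by 0.55, 0.54, 0.42, 0.39, 0.34 and 0.30. Hsd17b10 and Mlycd were lower, at -0.41 (SE 0.08) and -0.40 (SE 0.10). Etfb, the partner of Etfa in 1 flavoprotein, was at 0.07 (SE 0.09), and Acaa1a at -0.02 (SE 0.08). Of these 4 arrays 3 were exercised and 1 sedentary. Slide and scan date were not analysed here.

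**Figure D4:**
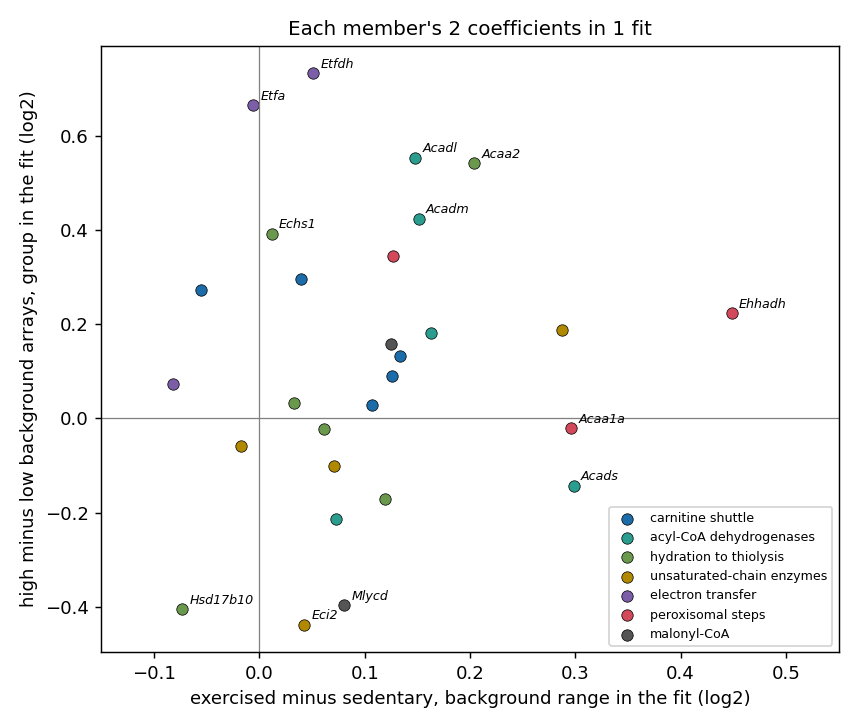
For each of the 28 genes, the exercised minus sedentary coefficient (log2, x axis) and the high minus low background coefficient (log2, y axis) of 1 limma fit holding both terms, coloured by role. Etfa and Etfdh lie near 0 on the x axis and at 0.67 and 0.73 on the y axis, while Acaa1a lies at 0.30 on the x axis and -0.02 on the y axis.

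Further probes of the same genes gave a second reading. Of the 28 genes, 15 had more than 1 passing probe, 24 further probes in all, and 18 of the 24 had the sign of the probe used. Acaa2 had further probes at 0.32, 0.32 and 0.07, Acads at 0.13, Acadvl at 0.13 and Acacb at 0.36. A further probe of Slc25a20 was at 0.44 (SE 0.19), and those of Cpt2 were at 0.06 and 0.04. Those of Crat were at 0.43 (SE 0.30) and 0.37 (SE 0.24). The opposite sign was found for 1 further probe each of Etfdh (-0.23), Hadh (-0.20), Slc22a5 (-0.05), Cpt1b (-0.03), Acadl (-0.03) and Etfa (-0.01). Other further probes of Etfdh, Slc22a5, Acadl and Etfa had the sign of the probe used. Acaa1a, Hsd17b4, Ehhadh and Decr1 had 1 passing probe each.

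Other genes of fatty acid catabolism were taken from lists of the pathway. Of 21 measured genes of mitochondrial acyl-CoA and ketone metabolism, 16 (76.2%) were positive, against 43.4% of all genes, with a median of 0.15. In limma 0 passed, against 0.183% of all genes. At an unadjusted p under 0.05 there were 3 (14.3%), all higher, against 5.29% of all genes on the higher side. Bdh1, which interconverts the ketone bodies acetoacetate and hydroxybutyrate, was at 9.82 to 10.34 (median 10.08) in exercised and 9.12 to 9.73 (median 9.66) in sedentary hearts. The groups did not overlap, and it differed by 0.51 (SE 0.12, adjusted p = 0.0942 in limma), 0.61 with the background block and 0.41 with the hepatocyte covariate. Acss1, the mitochondrial acetyl-CoA synthetase, differed by 0.28 (SE 0.11), and Acsm5, a medium-chain acyl-CoA synthetase, by 0.62 (SE 0.27). Acsm5 was highest in exercised replicates 5 and 6, at 6.48 and 7.35, and its difference was 0.21 with the hepatocyte covariate and 0.20 without exercised replicates 1, 5 and 6.

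Of 13 other measured peroxisomal genes, 12 (92.3%) were positive, against 43.4% of all genes, with a median of 0.32. In limma 0 passed, against 0.183% of all genes. At an unadjusted p under 0.05 there were 6 (46.2%), all higher, against 5.29% of all genes on the higher side. The acyl-CoA synthetase and transporter Slc27a2 was at 4.76 to 11.72 (median 7.33) in exercised and 4.44 to 5.77 (median 4.73) in sedentary hearts, with 8.63, 9.84 and 11.72 in exercised replicates 1, 5 and 6. Its difference of 2.87 (SE 0.95) was 0.25 with the hepatocyte covariate. Acaa1b, the thiolase paralog, was at 8.94, 10.49 and 11.50 in those arrays and 4.81 to 6.28 in the other exercised hearts, against 4.62 to 6.46 in sedentary hearts. Its difference of 2.35 (SE 0.94) was -0.22 with the covariate. Hacl1, which splits hydroxylated chains, and Decr2, the peroxisomal dienoyl-CoA reductase, differed by 0.61 (SE 0.21) and 0.66 (SE 0.25), and by 0.42 and 0.46 with the covariate. The list median was 0.18 with the covariate and 0.23 without exercised replicates 1, 5 and 6. Peroxisome assembly genes had 8 of 13 (61.5%) positive, against 43.4% of all genes, with a median of 0.06. In limma 0 passed and 0 had an unadjusted p under 0.05, against 15.9% of all genes in either direction. Among the assembly genes the smallest p values belonged to Pex26 (0.18, SE 0.11), Pex2 (-0.14, SE 0.10) and Pex7 (0.21, SE 0.14).

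Regulators of the pathway had 10 of 17 (58.8%) positive, against 43.4% of all genes, with a median of 0.07. In limma 0 passed, against 0.183% of all genes. At an unadjusted p under 0.05 there were 4 (23.5%), all higher, against 5.29% of all genes on the higher side. Ppara, the receptor for fatty acids that drives many of these genes, was at 5.27 to 6.03 (median 5.67) in exercised and 4.49 to 5.80 (median 5.11) in sedentary hearts and differed by 0.56 (SE 0.22, adjusted p = 0.250 in limma). The estrogen-related receptors Esrrb and Esrrg, which act on mitochondrial genes, differed by 0.27 (SE 0.10) and 0.43 (SE 0.17). Esrra, of the same family, differed by -0.09 (SE 0.13). With the background block Ppara was at 0.37, Esrrb at 0.27, Esrrg at 0.24 and Esrra at 0.06. The groups overlapped for Ppara, Esrrb, Esrrg and Esrra.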

How the data were processed

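Illumina beadchips with 45281 probes were hybridised with 12 biotin-labelled whole-heart RNA samples. The authors deposited bead intensity without normalization and a detection p-value for each, per the file headers. A second table deposited by the authors holds processed values whose scale is near log2. The submitters' processing notes name lumi for it, and its exact transformation and centring are unknown here. Probe symbols came from the platform annotation (34885 probes with 1 symbol, 18 with several, 10378 with none).

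Here intensities were background-corrected from the detection p-values and quantile normalized (limma's neqc, offset 16). A probe was kept (17098 were) if its detection p was under 0.01 on 6 arrays or more, and the brightest probe stood for each of 9843 genes. The difference, exercised minus sedentary, came from limma 3.58.1 (R 4.3.3, intensity trend), with Benjamini-Hochberg adjustment over all genes and a threshold of 0.05. The fit was tested on simulated data. The members and lists were chosen with earlier results of these data known, and so were the alternatives. Named besides the members were the 3 genes of smallest p in each pathway list and cell type markers from the 2 brightest measured. Genes singled out for their detection were named too and, after their values were seen, Acaa1b and Esrra. Arrays were called high background where the 5th percentile of the raw signal exceeded 75. The number of arrays limits the precision. Probe positions are not used here.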

Additional observations from a re-analysis of the deposited data

Results flagged for a closer look

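One array stood apart from the rest of its group, by Dixon's criterion, in 5 of the 60 sets of 6 values tested, where chance gives about 3. Exercised replicate 3 was high for Cpt2, at 13.57 against 13.22 for the nearest exercised array, and for Hadhb, at 14.29 against 13.92; its white fat marker mean was 8.20, against 6.64 or less in the other exercised arrays. Sedentary replicate 2, the high-background array of its group, was low for Hsd17b10, at 12.09 against 12.31, and high for Hsd17b4, at 11.45 against 11.28. Sedentary replicate 6 was low for Decr1, at 10.35 against 10.83. All values are log2 intensities.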

How the results depend on the processing

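The count of 0 beta-oxidation genes called held under every alternative fitted except array weights, where 1 gene (Acaa1a) passed. The number on the positive side was 18 to 28 of 28. The 18 came from low-background arrays alone, where 45.8% of all genes were positive. The 28 came from median scaling, where 83.3% of all genes were positive. The median of 0.15 was 0.45 with median scaling, and the gap between peroxisomal and mitochondrial genes reversed to -0.0090 with the hepatocyte covariate; the cause was not tested. Without single arrays the count called was 0 throughout, the number positive 20 to 25, the median 0.11 to 0.19 and the gap 0.11 to 0.21. In those fits 40.6% to 46.8% of all genes were positive. Of all genes, 18 were called; the count was 36 with the background block, 10 on low-background arrays alone, 0 on high-background arrays alone (105 at an unadjusted p under 0.05 in limma, where 3 exercised arrays face 1 sedentary array, whose spread is assumed to be that of the exercised arrays, so the count says nothing about stability), 1 with the hepatocyte covariate, 3 with both terms, 1 without the 3 arrays rich in liver transcripts, 533 with array weights, 9 with cyclic loess, 0 with median scaling (432 at an unadjusted p under 0.05), 1 without a detection filter, 3 with the replicate block and 1 to 236 without single arrays, where leaving out sedentary replicate 2 gave 236. Same-numbered samples did not deviate together in every pair (correlations of -0.29 to 0.56, with 2 of 6 exercised arrays closest to their own number), so the numbers were not taken as a pairing. The replicate block changed no call among the 28 genes.

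With 6 arrays a group, the 95% intervals excluded 0 for 8 of the 28 genes, and signals near background, such as that of Ehhadh, depend on the background correction (0.52 with it and 0.24 without it).

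Signs turned for the following genes. With the background block Slc22a5 was at -0.055, Eci2 at 0.043, Etfa at -0.0061 and Mlycd at 0.080. On low-background arrays alone Slc22a5 was at -0.11, Acadsb at -0.11, Hadhb at -0.010, Hadh at -0.027, Echs1 at -0.047, Etfa at -0.013 and Mlycd at 0.011. With median scaling Hsd17b10 was at 0.11, Eci2 at 0.21, Ech1 at 0.21, Etfb at 0.18 and Mlycd at 0.27. The hepatocyte covariate put Eci2 at 0.062, cyclic loess put Eci1 at -0.0085, and array weights put Acadsb at -0.028 and Mlycd at 0.0063. In fits chosen after seeing the data, the high-background arrays alone, with that 1 sedentary array, gave Acadl at -0.29, Eci2 at 0.23, Ech1 at 0.030 and Mlycd at 0.25, and the background block with the hepatocyte covariate gave Eci2 at 0.24, Etfa at -0.015 and Mlycd at 0.12. Further probes gave -0.026 for Acadl, -0.034 for Cpt1b, -0.0080 for Etfa, -0.23 for Etfdh, -0.20 for Hadh and -0.052 for Slc22a5.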
